A study of Mus musculus with 22 samples.

Results

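The imprinted growth regulators examined here were 10 genes chosen by symbol, *H19*, *Meg3*, *Peg3*, *Dlk1*, *Peg10*, *Plagl1*, *Cdkn1c*, *Grb10*, *Mest* and *Ndn*, of 41388 genes counted in each library. All 10 symbols matched an Ensembl identifier of the files. RNA had been sequenced from stromal cells of tumors grown in C57BL/6 mice labelled as postnatal day 56, sorted by TdTomato (TdT) and CD45 into 4 populations. TdT reports cells in which Cre, driven by the promoter of Osterix (Osx, the *Sp7* gene), had once been active, and it then stays on in their progeny, so TdT marks a history of Cre activity and not current *Sp7* expression. CD45, the product of *Ptprc*, marks leukocytes. The populations were TdT single positive (TdT+;CD45-), double negative (TdT-;CD45-), double positive (TdT+;CD45+) and CD45 single positive (TdT-;CD45+). Of the 22 libraries, 11 carried the label wild type, which here means Osx-cre;Ai9 mice, and 11 the label Cdh2-cKO;Ai9, a conditional knockout of the N-cadherin gene *Cdh2*. Ai9 is the TdT reporter allele, and both genotypes carried it. In each genotype the TdT single positive group had 2 libraries and the remaining groups had 3. They came from 4 inoculated wild type and 6 inoculated Cdh2-cKO mice. The labels call the libraries biological replicates and do not say which of them share an animal. The libraries held 16594228 to 26784003 counts on genes, with a median of 18977040. The tumor is given as orthotopic MMTV-BO1 in the labels, while the design text of the series speaks of subcutaneous tumors.

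Imprinted genes are expressed mainly from the copy inherited from a particular parent, and the silent copy is usually marked by DNA methylation at a control region shared by a cluster of genes. Many of them act on growth before and shortly after birth: paternally expressed genes tend to promote it and maternally expressed genes tend to restrain it. A number of imprinted genes that are abundant in the fetus decline in most tissues after birth and remain higher in some mesenchymal and progenitor cells. Of the 10 genes, *H19*, *Meg3*, *Cdkn1c* and, outside neurons, *Grb10* are maternally expressed, and *Dlk1*, *Peg3*, *Peg10*, *Plagl1*, *Mest* and *Ndn* are paternally expressed. The counts hold no allele information, so imprinting itself was not measured.

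On GRCm38, *Meg3* (ENSMUSG00000021268, chr12:109541001-109571726) and *Dlk1* (ENSMUSG00000040856, chr12:109452823-109463336) are neighbors in an imprinted cluster on chromosome 12. *H19* (ENSMUSG00000000031, chr7:142575529-142578143) and *Cdkn1c* (ENSMUSG00000037664, chr7:143458350-143461050) lie in adjoining clusters on chromosome 7, which also holds *Peg3* (ENSMUSG00000002265, chr7:6703892-6730421) and *Ndn* (ENSMUSG00000033585, chr7:62348277-62349928). *Peg10* (ENSMUSG00000092035, chr6:4747306-4760517) and *Mest* (ENSMUSG00000051855, chr6:30723547-30748455) are on chromosome 6, *Plagl1* (ENSMUSG00000019817, chr10:13090691-13131694) on chromosome 10 and *Grb10* (ENSMUSG00000020176, chr11:11930508-12038683) on chromosome 11. *H19* and *Meg3* are annotated as long noncoding RNAs and the other 8 genes as protein coding. *Mest* shares 902 of its 3935 exon bases with *Copg2* on the opposite strand, and since the counts are of unambiguous reads, reads from those bases may be missing from the *Mest* counts. The same holds for *Meg3*, which shares 1228 of its 18089 exon bases with *Gm26906* on the opposite strand. Smaller overlaps, of at most 97 bases with any single gene, were annotated for *Meg3*, *H19* and *Plagl1*.

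Promoter sequences from RefSeq (GRCm38.p6) were found for 7 of the 10 genes, with 11 transcription starts between them. *H19*, *Peg10* and *Cdkn1c* had no entry. The 250 bases before a start are printed 5′ to 3′ on the strand of the gene for *Grb10*, *Mest* and *Meg3*, which were all higher in CD45- cells (below), and for *Dlk1*, the undetected neighbor of *Meg3*. The printed windows lie outside annotated exons. For *Grb10* (chr11:12037421-12037670, minus strand, within the annotated gene), *Mest* (chr6:30737800-30738049, plus strand, within the annotated gene) and *Dlk1* (chr12:109452573-109452822, plus strand, directly before the gene) the capitals mark CpG dinucleotides, the sites at which imprinted promoters are methylated. For *Meg3* (chr12:109540746-109540995, plus strand, just before the gene) they mark matches to TATAAA.
Grb10: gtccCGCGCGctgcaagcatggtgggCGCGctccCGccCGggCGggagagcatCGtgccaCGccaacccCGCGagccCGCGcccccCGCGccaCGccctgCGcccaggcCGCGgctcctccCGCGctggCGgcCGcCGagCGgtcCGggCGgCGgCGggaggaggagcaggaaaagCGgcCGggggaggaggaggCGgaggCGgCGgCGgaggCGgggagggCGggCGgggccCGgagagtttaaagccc
Mest: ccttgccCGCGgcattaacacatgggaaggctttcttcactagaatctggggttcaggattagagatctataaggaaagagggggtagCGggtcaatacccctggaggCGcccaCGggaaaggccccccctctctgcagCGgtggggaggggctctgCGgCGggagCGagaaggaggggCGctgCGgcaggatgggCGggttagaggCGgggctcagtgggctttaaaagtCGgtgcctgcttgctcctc
Dlk1: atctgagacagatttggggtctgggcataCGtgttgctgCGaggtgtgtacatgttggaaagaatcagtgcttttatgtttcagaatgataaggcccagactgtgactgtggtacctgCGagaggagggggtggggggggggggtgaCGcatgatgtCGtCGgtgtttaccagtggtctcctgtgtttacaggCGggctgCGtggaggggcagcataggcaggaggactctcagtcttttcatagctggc
Meg3: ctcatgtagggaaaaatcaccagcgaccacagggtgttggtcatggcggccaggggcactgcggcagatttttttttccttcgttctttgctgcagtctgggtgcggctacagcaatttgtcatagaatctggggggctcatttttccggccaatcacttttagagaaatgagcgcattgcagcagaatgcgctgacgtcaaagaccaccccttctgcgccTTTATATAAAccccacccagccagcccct
The printed *Grb10* window held 40 CpG, more than 98.7% of the 32851 promoter windows of the same length. A second *Grb10* start had a window outside annotated exons (chr11:12027972-12028221) with 8 CpG, more than 57%, which is not printed. The printed *Mest* window held 14 CpG, more than 70.6%. The *Dlk1* window held 8 CpG, more than 57%, and the *Meg3* window 10, more than 62.2%. Searched on both strands, TATAAA was found in 12.4% of all windows and, among the 11 windows of these genes, only in that of *Meg3*, at position 226 counted from its first base, overlapping a match on the other strand. The sequence GGGGCCCC, the published recognition sequence of the PLAGL1 protein, was in 0.889% of all windows and, of the 11, only in that of *Peg3*, at position 50. That window overlaps annotated exons and is not printed. These matches describe the sequence and not binding, and methylation was not measured.

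The genes that define the labels were checked first. Values are normalized CPM, the counts scaled by library sizes with TMM factors. *Ptprc* lay between 471.7 and 1821 CPM in the 12 CD45+ libraries and between 2.45 and 337 CPM in the 10 CD45- libraries. *Sp7* had 3 counts in all 22 libraries together. *Cdh2* is the gene named by the knockout. Cre is driven by the *Osx* promoter, so *Cdh2* would be deleted in the TdT+ lineage, and double negative cells are not expected to have lost it. Among CD45- cells the label thus concerns TdT single positive cells, where *Cdh2* went against it. In TdT single positive cells it was at 9.13 and 5.19 CPM in the wild type libraries and at 17.2 and 13.1 CPM in those labelled Cdh2-cKO. In double negative cells it was at 6.02, 7.47 and 4.52 CPM in wild type and at 12.5, 18.4 and 14.2 CPM in the libraries labelled Cdh2-cKO. *Cdh2* was thus higher, not lower, in every CD45- library labelled Cdh2-cKO, by a log2 difference of 1.20 ± 0.547 (SE, adjusted p = 0.462). Counts over the whole gene may include transcripts outside a deleted part, so they do not show whether the gene was functional. Every genotype direction below rests on these labels.

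**Figure D1:**
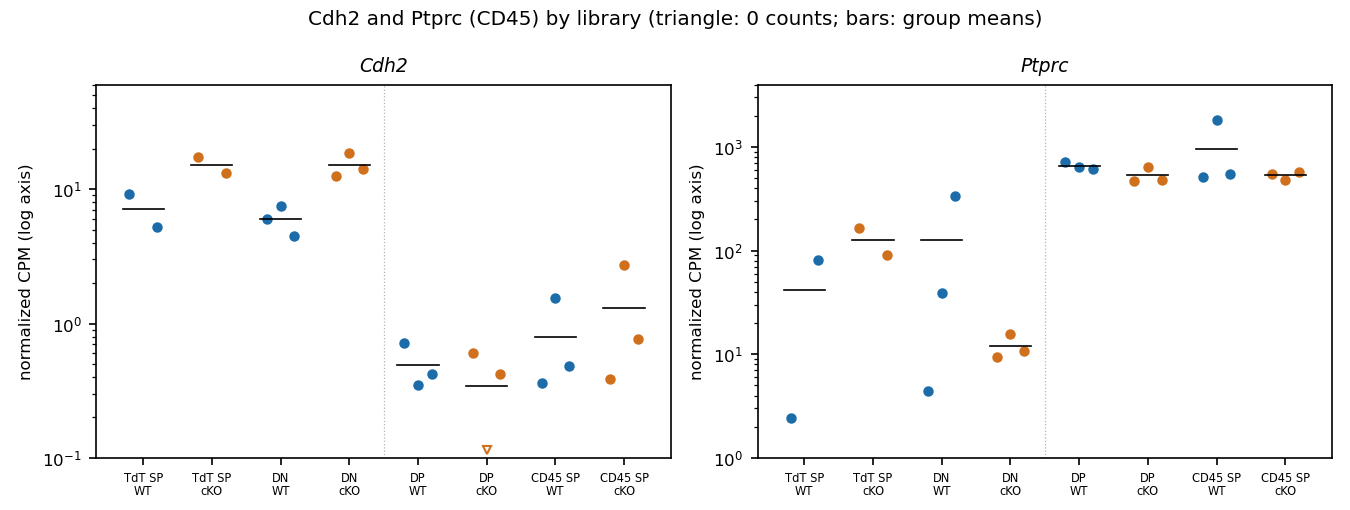
Normalized CPM of *Cdh2* and *Ptprc* (log axis) in each of the 22 libraries by population and genotype label (TdT SP, TdT single positive; DN, double negative; DP, double positive; CD45 SP, CD45 single positive; cKO, labelled Cdh2-cKO), with group means as bars and 0 counts as a triangle. *Cdh2* was higher in the CD45- libraries labelled Cdh2-cKO (12.5 to 18.4 CPM) than in the wild type ones (4.52 to 9.13 CPM), and *Ptprc* separated the CD45+ from the CD45- libraries.

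The CD45- libraries differed in how much leukocyte RNA they held. The sum of 10 leukocyte markers, among which *Laptm5* and *Cd53* were the most abundant, was 16960 to 20600 CPM in the CD45+ libraries. In wild type TdT single positive cells it was 248 and 2691 CPM, and in wild type double negative cells 237, 1580 and 10020 CPM. In TdT single positive cells labelled Cdh2-cKO it was 6447 and 2926 CPM, and in double negative cells labelled Cdh2-cKO 455, 479 and 541 CPM. Wild type double negative replicate 3 and TdT single positive replicate 1 labelled Cdh2-cKO therefore held the most leukocyte RNA of the CD45- libraries. The sum of 10 fibroblast markers, led by *Col1a1*, was 79.4 to 282 CPM in the CD45+ libraries and 5179 to 66840 CPM in the CD45- libraries. Wild type CD45 single positive replicate 2 also stood apart, with *Ptprc* at 1821 CPM and a second principal component of -151.3 against -33.0 to 32.5 in the other 21 libraries.

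The levels of the imprinted growth regulators in CD45- and CD45+ cells are given first, as a description, since all but *Cdkn1c* passed the filter on low counts, more than 1 CPM in at least 2 libraries, only through the CD45- libraries. *Grb10*, *Ndn*, *Cdkn1c*, *Peg3*, *Mest*, *H19*, *Meg3*, *Plagl1* and *Peg10* were all higher in the CD45- stroma, with log2 differences between 3.19 for *Peg10* and 8.34 for *Meg3*, and *Dlk1* was not detected anywhere. For 8 of the 9 detected genes each of the 10 CD45- libraries lay above each of the 12 CD45+ libraries, as for 11% of all tested genes. Among the CD45- populations the highest group mean was in wild type TdT single positive cells for all of these genes but *Mest*, by a narrow margin for *Peg10*, although edgeR called none of them between TdT+ and TdT- cells or between the genotypes. In bulk RNA, fewer cells of a type and less RNA per cell cannot be told apart.

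**Figure D2:**
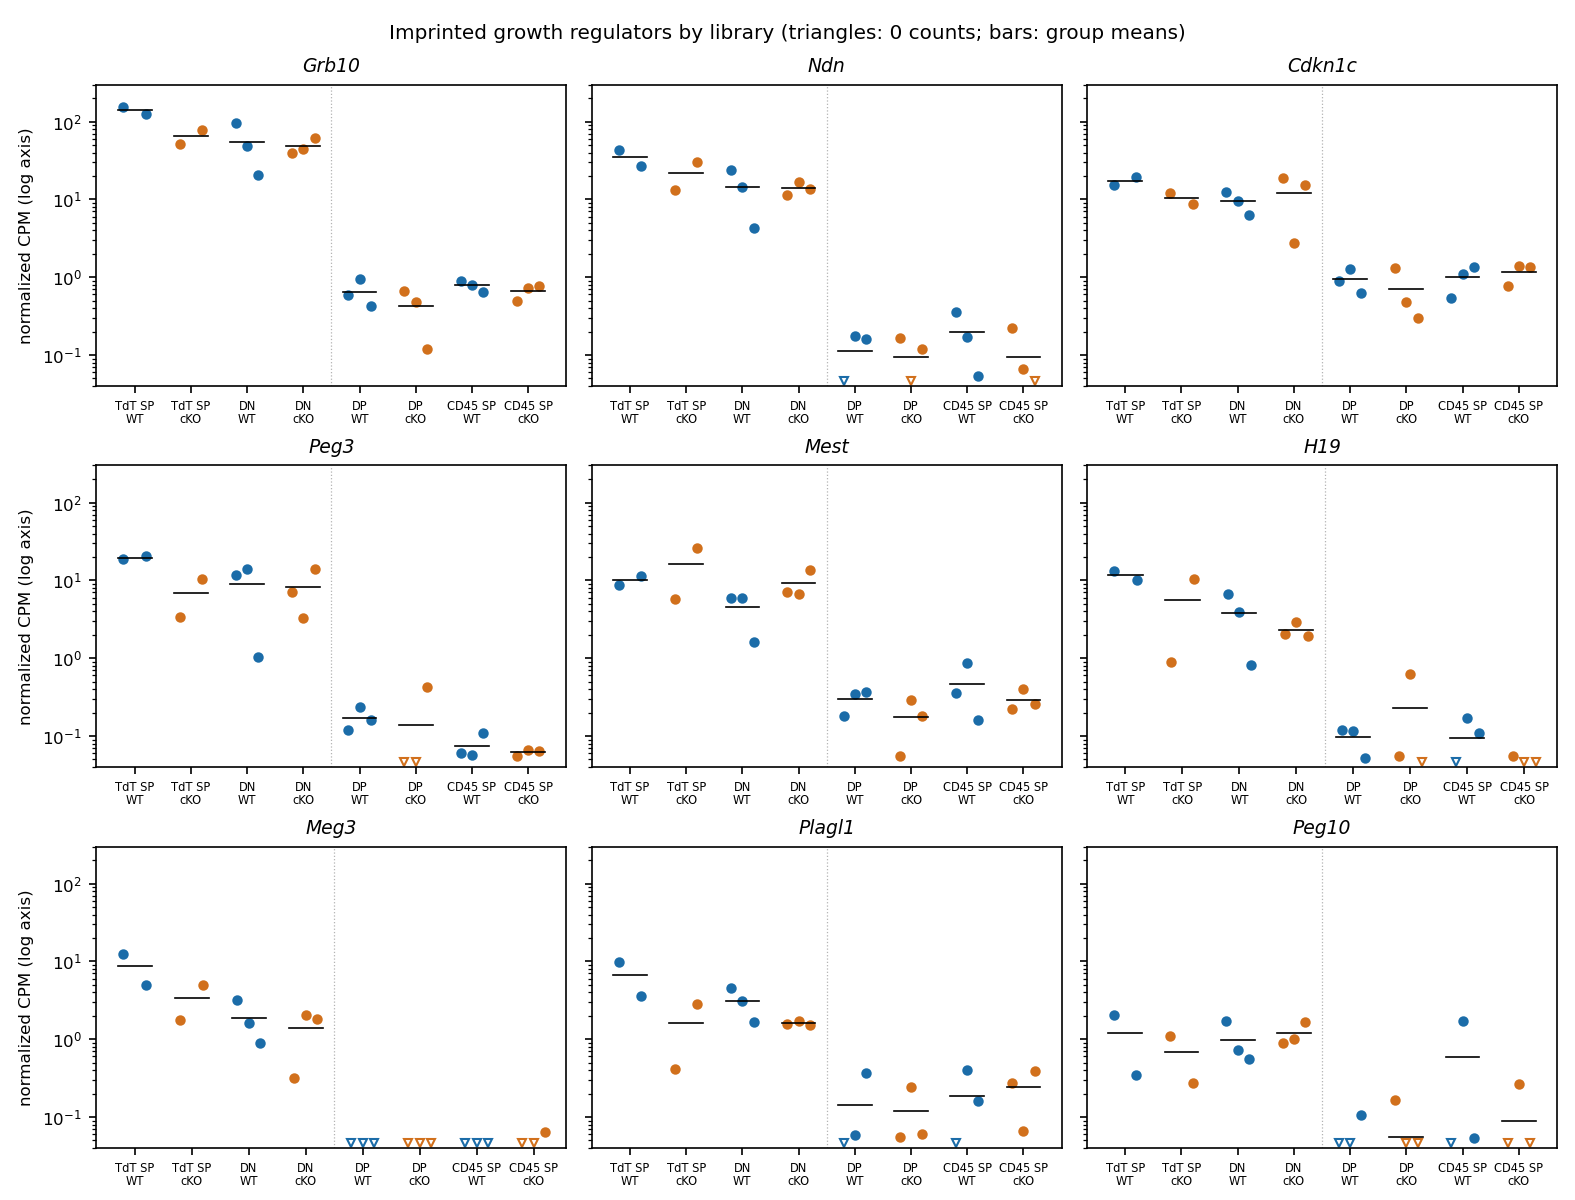
Normalized CPM (log axis) of the 9 detected imprinted growth regulators in each of the 22 libraries, by population and genotype label, with group means as bars and libraries with 0 counts as triangles on the lower edge. The CD45- libraries stand left of the dotted line and the CD45+ libraries right of it, and only *Peg10* overlaps between them, through 1 CD45+ library at 1.72 CPM.

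*Grb10* encodes an adaptor protein that binds the insulin and insulin-like growth factor receptors and restrains their signaling. It was the gene with the highest counts of the 10. In wild type cells it was at 154.7 and 125 CPM in TdT single positive and at 95.9, 48.0 and 20.8 CPM in double negative libraries. In libraries labelled Cdh2-cKO it was at 51.8 and 77.1 CPM in TdT single positive and at 39.7, 44.1 and 61.2 CPM in double negative cells. Both wild type TdT single positive libraries were above all 8 other CD45- libraries. The order of the group means was thus wild type TdT single positive with 139.7 ± 21.2 CPM (SD, n = 2), TdT single positive labelled Cdh2-cKO with 64.4 ± 17.8 CPM (SD, n = 2), wild type double negative with 54.9 ± 37.99 CPM (SD, n = 3) and double negative labelled Cdh2-cKO with 48.3 ± 11.4 CPM (SD, n = 3), and the last 3 overlapped. In the CD45+ libraries *Grb10* did not exceed 0.936 CPM, with a median of 0.654 CPM, and its log2 difference between CD45- and CD45+ cells was 6.81 ± 0.291 (SE, adjusted p = 3.83e-11).

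*Cdkn1c* encodes p57Kip2, an inhibitor of cyclin-dependent kinases that holds cells out of the division cycle. In wild type it was at 15.2 and 19.3 CPM in TdT single positive and at 12.6, 9.47 and 6.39 CPM in double negative cells. In the libraries labelled Cdh2-cKO it was at 12.2 and 8.80 CPM in TdT single positive cells and at 18.6, 2.76 and 15.3 CPM in double negative cells, the widest spread of any of its groups. *Cdkn1c* was the only one of the 10 genes above the floor of 3 counts in all 12 CD45+ libraries, where it was at 0.301 to 1.41 CPM with a median of 0.990 CPM. Its log2 difference between the sides was 3.68 ± 0.326 (SE, adjusted p = 4.18e-08).

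*Plagl1*, *Peg3* and *Ndn* encode regulators of transcription and cell division. *Plagl1* is a zinc finger factor that can arrest the cell cycle and acts on other imprinted genes, *Peg3* is a large zinc finger protein, and *Ndn* encodes necdin, which binds E2F factors. *Ndn* was at 42.8 and 27.1 CPM in wild type TdT single positive cells and at 24.0, 14.5 and 4.30 CPM in wild type double negative cells. It was at 13.2 and 30.7 CPM in TdT single positive cells labelled Cdh2-cKO and at 11.5, 16.6 and 13.5 CPM in the matching double negative cells. *Ndn* thus had its lowest CD45- value in wild type double negative replicate 3, the CD45- library richest in leukocyte markers, and that value was still far above the 0.361 CPM it reached at most in CD45+ cells.

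*Peg3* was at 18.6 and 20.6 CPM in wild type TdT single positive cells and at 11.8, 14.02 and 1.05 CPM in wild type double negative cells. In libraries labelled Cdh2-cKO *Peg3* was at 3.43 and 10.4 CPM in TdT single positive and at 7.10, 3.25 and 14 CPM in double negative cells. The lowest *Peg3* value was again in wild type double negative replicate 3. *Plagl1* was at 9.70 and 3.64 CPM in wild type TdT single positive cells and at 4.55, 3.07 and 1.65 CPM in wild type double negative cells. In libraries labelled Cdh2-cKO *Plagl1* was at 0.411 and 2.83 CPM in TdT single positive and at 1.58, 1.70 and 1.54 CPM in double negative cells. Its lowest CD45- value was in TdT single positive replicate 1 labelled Cdh2-cKO, the second CD45- library rich in leukocyte markers. The log2 differences between CD45- and CD45+ cells were 7.30 ± 0.456 for *Ndn* (SE, adjusted p = 5.76e-10), 6.53 ± 0.565 for *Peg3* (adjusted p = 3.17e-08) and 3.94 ± 0.531 for *Plagl1* (adjusted p = 6.19e-06).

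*Mest*, a hydrolase-like protein of the mesoderm, differed from the other genes in where it was highest. In TdT single positive cells it was at 8.73 and 11.3 CPM in wild type and at 5.76 and 26.5 CPM in the libraries labelled Cdh2-cKO. In double negative cells it was at 5.88, 5.99 and 1.60 CPM in wild type and at 7.15, 6.69 and 13.7 CPM in the libraries labelled Cdh2-cKO. The highest *Mest* value, 26.5 CPM, was that of a single library, and the other 9 CD45- libraries lay at or below 13.7 CPM. Its log2 difference between CD45- and CD45+ cells was 4.92 ± 0.380 (SE, adjusted p = 7.54e-09). *Copg2*, the gene that shares exon bases with *Mest*, went the other way, at -0.76 ± 0.158 (adjusted p = 0.000445).

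*Peg10* derives from a retrotransposon and is needed in the placenta. It was the least abundant of the 9 detected genes by counts, with 6 to 40 counts in the CD45- libraries (0.273 to 2.04 CPM, median 0.956 CPM). In the CD45+ libraries it had 0 counts in 7 of 12 and 30 counts, 1.72 CPM, in wild type CD45 single positive replicate 2, the library that stood apart. The 2 sides therefore overlapped for *Peg10*. Its log2 difference was 3.19 ± 0.785 (SE, adjusted p = 0.00184) and ranged from 2.75 to 4.22 when a library was left out, the highest without wild type CD45 single positive replicate 2. Within wild type its adjusted p was 0.0424 and was between 0.0505 and 0.213 when any of 10 libraries was left out. These were wild type TdT single positive replicate 1, wild type double positive replicates 1 and 2, wild type CD45 single positive replicates 1 and 3, wild type double negative replicates 1 and 2, and the 3 double negative libraries labelled Cdh2-cKO. Within the libraries labelled Cdh2-cKO the adjusted p for *Peg10* was 0.0132, and 0.071 without TdT single positive replicate 1.

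*H19* and *Meg3* are long noncoding RNAs, and *H19* is also the precursor of the microRNA miR-675. *H19* was at 13.3 and 10.2 CPM in wild type TdT single positive cells and at 6.71, 3.89 and 0.826 CPM in wild type double negative cells. In the libraries labelled Cdh2-cKO *H19* was at 0.891 and 10.3 CPM in TdT single positive and at 2.05, 2.96 and 1.92 CPM in double negative cells. Its 2 lowest CD45- values, below 1 CPM, were those of the 2 CD45- libraries with the most leukocyte RNA. In CD45+ cells *H19* stayed at or below the floor of 3 counts in 11 of 12 libraries, the exception being a double positive library labelled Cdh2-cKO with 13 counts, and its log2 difference was 5.76 ± 0.629 (SE, adjusted p = 5.50e-07).

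*Meg3* was at 12.4 and 5.04 CPM in wild type TdT single positive cells and at 3.17, 1.64 and 0.881 CPM in wild type double negative cells. In the libraries labelled Cdh2-cKO *Meg3* was at 1.78 and 4.92 CPM in TdT single positive and at 0.316, 2.04 and 1.83 CPM in double negative cells. It was close to absent from CD45+ cells, with 1 count in the 12 libraries together against 741 counts in the 10 CD45- libraries. The ratio of these sums, scaled by library size, was 707, with an exact 95% counting interval of 127 to 2.80e+04. In wild type the 6 CD45+ libraries held no *Meg3* count. There the ratio of CD45- to CD45+ cells has only a lower limit, with the CD45+ level taken as at most the floor. The mean CD45- level was 27.0 times the floor of 3 counts per library (0.171 CPM), which is that limit. The mean CD45- level rests largely on TdT single positive replicate 1, at 12.4 CPM beside 0.881 to 5.04 CPM in the remaining wild type CD45- libraries. Without it the limit would be lower. The fitted log2 difference over both genotypes was 8.34 ± 0.692 (SE, adjusted p = 9.12e-07), a value that depends on the prior count. *Dlk1*, which encodes a transmembrane protein of preadipocytes and fetal tissues related to Notch ligands, had 0 counts in all 22 libraries, which allows up to 3 counts or 0.103 to 0.201 CPM in a library. The neighbors *Meg3* and *Dlk1* thus differed, in that only *Meg3* was detected at this depth.

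For comparison between genes, levels were divided by exon length. On this scale the median over the CD45- libraries was highest for *Ndn* with 9.42 CPM per kb, *Cdkn1c* with 6.43 and *Grb10* with 6.22 CPM per kb. *Mest* followed with 1.76 and *H19* with 1.44 CPM per kb. *Peg3* had 0.834, *Plagl1* 0.310, *Peg10* 0.143 and *Meg3* 0.107 CPM per kb, so *Ndn*, with 1652 exon bases, led the list although *Grb10* had the most counts. Below *Ndn* the order differed between the CD45- groups. The mean of *Grb10* was above that of *Cdkn1c* except in double negative cells labelled Cdh2-cKO, at 5.32 against 6.33 CPM per kb. *H19* was above *Mest* in both wild type groups, and *Meg3* was above *Peg10* in both TdT single positive groups.

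Of the 10 genes 9 passed the filter on low counts, and *Dlk1* did not. Apart from *Cdkn1c*, none of them passed through its CD45+ libraries, so they had to be higher in CD45- cells, and nothing is read from the following counts. Calls were made by edgeR's quasi-likelihood test over 15018 genes, at p of 0.05 or less after Benjamini-Hochberg adjustment. All 9 tested genes were called higher in CD45- cells over both genotypes, where 63.7% of all tested genes were called, 31.1% as higher and 32.6% as lower. All 9 were also called higher within wild type, beside 25.7% of all genes, and within the libraries labelled Cdh2-cKO, beside 27.1%. Without overlap between the libraries, 8 of the 9 were higher, beside 11% of all genes.

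**Figure D3:**
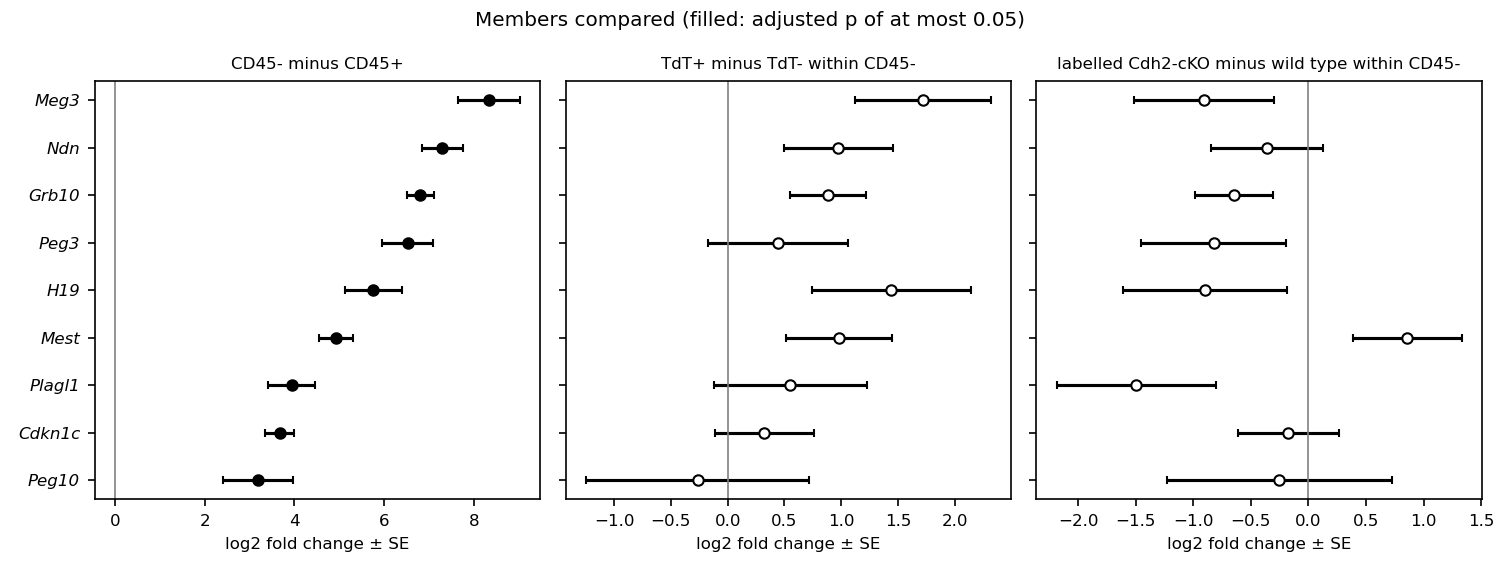
Log2 fold changes with standard errors of the 9 tested genes from edgeR's quasi-likelihood fit for CD45- minus CD45+ cells (left), TdT+ minus TdT- within CD45- cells (middle) and labelled Cdh2-cKO minus wild type within CD45- cells (right), with filled circles where the adjusted p was at most 0.05. All 9 were called in the left panel, where 31.1% of all genes were called higher, and none in the other panels, whose axes are narrower and where 1.89% (middle) and 0% (right) of all genes were called.

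The comparison of TdT+ with TdT- cells asks whether cells with a history of *Osx* promoter activity differ from the remaining stroma. Within CD45- cells, *Meg3* had a log2 difference of 1.72 ± 0.599 (SE, adjusted p = 0.152), *H19* 1.44 ± 0.698 (adjusted p = 0.271), *Mest* 0.98 ± 0.465 (adjusted p = 0.262), *Ndn* 0.97 ± 0.479 (adjusted p = 0.279) and *Grb10* 0.88 ± 0.334 (adjusted p = 0.163). *Plagl1* was at 0.55, *Peg3* at 0.45, *Cdkn1c* at 0.32 and *Peg10* at -0.26. Single libraries moved several of these estimates: without TdT single positive replicate 2 labelled Cdh2-cKO *H19* was at 0.12, *Mest* at 0.24, *Peg3* at -0.059 and *Plagl1* at -0.42. The estimates were positive for 8 of the 9 genes, with a median of 0.88 against 0.07 over all genes, but 0 of the 9 were called by edgeR, beside 1.89% of all genes. At an unadjusted p under 0.05 stood 3 of the 9, *Meg3*, *Grb10* and *Mest*, and 2847 of all 15018 genes. DESeq2 also called 0, as did edgeR with the replicate number as a block, whereas limma's voomWithQualityWeights called 2, beside 4.78% of all genes: *Meg3* at 1.62 (adjusted p = 0.0382) and *Grb10* at 0.95 (adjusted p = 0.0314). Without wild type double negative replicate 1, edgeR called *Grb10*, at 1.22, beside 3.51% of 14937 genes. Over all alternatives the adjusted p ranged from 0.0314 to 0.424 for *Grb10* and from 0.0382 to 0.438 for *Meg3*, so neither gene was separated from the threshold with these numbers of libraries.

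In wild type, both TdT single positive libraries were above all 3 double negative libraries for 7 of the 9 genes, *H19*, *Meg3*, *Peg3*, *Cdkn1c*, *Grb10*, *Mest* and *Ndn*, beside 16.1% of all genes. In the libraries labelled Cdh2-cKO this held for 0 of the 9, beside 21.7% of all genes. Matched by replicate number, *Grb10* there was at 51.8 and 77.1 CPM in TdT single positive against 39.7 and 44.1 CPM in double negative cells. *Meg3* and *Ndn* were also higher in both pairs, and the other tested genes were not. Whether the numbers pair libraries is not known, and with the number as a block edgeR called 0 of the 9. The ratio of the group means, TdT single positive over double negative, was mixed in the libraries labelled Cdh2-cKO. It was 2.42 for *H19*, 2.40 for *Meg3*, 1.76 for *Mest*, 1.58 for *Ndn* and 1.33 for *Grb10*, against 3.07, 4.58, 2.23, 2.45 and 2.55 in wild type. It was 0.851 for *Peg3*, 0.860 for *Cdkn1c* and 0.574 for *Peg10*, against 2.19, 1.82 and 1.21 in wild type. *Plagl1* had means of 1.618 CPM in TdT single positive and 1.606 CPM in double negative cells labelled Cdh2-cKO. The counts and pairs were picked once the values had been seen, and the genes vary together across libraries, so they are not 9 separate observations. The test of the difference between the genotypes in this effect gave negative estimates for all 9 genes, with a median of -0.93 against 0.02 over all genes, but edgeR called 0 of the 9, beside 0.00666% of all genes. None of the 9 had an unadjusted p under 0.05, as 1512 of all genes did, and voomWithQualityWeights and DESeq2 also called 0. The smallest adjusted p was 0.782, for *Grb10* at -0.93 ± 0.678 (SE). The sum of the fibroblast markers was 66840 and 36060 CPM in wild type TdT single positive cells against 36300, 11040 and 5179 CPM in wild type double negative cells. In the libraries labelled Cdh2-cKO it was 15780 and 31290 CPM in TdT single positive and 10870, 10180 and 17720 CPM in double negative cells, and the sums overlapped in both genotypes. The sum of 8 pericyte markers, led by *Rgs5* and *Pdgfrb*, was 2550 and 1776 CPM against 1091, 629.9 and 173.5 CPM in wild type, without overlap, and 562.5 and 970.2 CPM against 364, 454.3 and 882.7 CPM in the libraries labelled Cdh2-cKO, with overlap. The leukocyte sum overlapped in wild type but not in the libraries labelled Cdh2-cKO, where it was 6447 and 2926 CPM against 455, 479 and 541 CPM. Their part in the levels of the imprinted genes was not tested.

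Within CD45+ cells, where apart from *Cdkn1c*, *Grb10* and *Mest* most libraries were near the floor, 0 of the 9 genes were called between TdT+ and TdT- cells by edgeR, voomWithQualityWeights or DESeq2, beside 0.00666% of all genes with edgeR. None of the 9 had an unadjusted p under 0.05, as 609 of all genes did. *Cdkn1c* was at 0.891, 1.29 and 0.633 CPM in wild type double positive cells and at 0.541, 1.09 and 1.35 CPM in wild type CD45 single positive cells. Its log2 difference over both genotypes was -0.41 ± 0.441 and that of *Grb10* was -0.45 ± 0.395 (SE).

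Whether these genes differ with the genotype label was asked next, with the reservation that *Cdh2* itself was higher in the CD45- libraries labelled Cdh2-cKO. The comparison within CD45- cells averages TdT single positive cells, which have a history of Cre activity, with double negative cells, which lack the TdT mark of it. It is therefore not a comparison of cells with and without the deletion alone. Within CD45- cells *Plagl1* had the largest difference, -1.50 ± 0.693 (SE, adjusted p = 0.472), and was the only one of the 9 with an unadjusted p under 0.05. *Meg3* was at -0.91 ± 0.611, *H19* at -0.90 ± 0.712, *Peg3* at -0.82 ± 0.628 and *Grb10* at -0.65 ± 0.340 (SE). *Ndn* was at -0.36, *Peg10* at -0.25 and *Cdkn1c* at -0.17. *Mest* was the only gene with a positive estimate, 0.86 ± 0.475 (SE, adjusted p = 0.557). Without TdT single positive replicate 2 labelled Cdh2-cKO the estimate was 0.12 for *Mest*, -2.21 for *H19* and -2.47 for *Plagl1*. The estimates were negative for 8 of the 9 genes, with a median of -0.65 against -0.06 over all genes. None of these differences passed the test: edgeR called 0 of the 9, beside 0% of all genes, with 1537 of all genes at an unadjusted p under 0.05. By voomWithQualityWeights and by DESeq2 0 of the 9 were called as well, although DESeq2 called 124 of all genes.

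In TdT single positive cells both libraries labelled Cdh2-cKO were below both wild type libraries for 5 of the 9 genes, *Meg3*, *Peg3*, *Plagl1*, *Cdkn1c* and *Grb10*, beside 20.7% of all genes. The largest estimates were -2.05 ± 1.085 for *Plagl1* (SE, adjusted p = 0.530), -1.51 ± 0.984 for *Peg3* (adjusted p = 0.608), -1.38 ± 0.945 for *Meg3* (adjusted p = 0.636) and -1.12 ± 0.530 for *Grb10* (adjusted p = 0.475). In double negative cells the estimates were positive for 3 of the 9 genes, and the ratio of the group means, labelled Cdh2-cKO over wild type, was 0.519 for *Plagl1*, 0.606 for *H19* and 0.736 for *Meg3*. There 0 of the 9 were lower without overlap, beside 5.35% of all genes, and 1, *Mest*, was higher, beside 3.87%, at 1.03 ± 0.605 (SE, adjusted p = 0.720). With 2 libraries against 2, the absence of overlap is a description. edgeR called 0 of the 9 between the genotype labels in each of the 4 populations. Of all genes it called 0.00666% in TdT single positive cells and 0% in each of the other 3, and none of the 9 had an unadjusted p under 0.05 in any of the 4, against 515 to 1576 of all genes. The same holds for both CD45+ populations in a joint comparison, where 0% of all genes and 0 of the 9 were called and 1299 of all genes had an unadjusted p under 0.05. voomWithQualityWeights and DESeq2 also called 0 of the 9 in each of these comparisons.

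Leukocyte RNA differed in the same TdT single positive libraries, at 248 and 2691 CPM in wild type against 6447 and 2926 CPM in those labelled Cdh2-cKO, as did the fibroblast sum, at 66840 and 36060 against 15780 and 31290 CPM, and the pericyte sum, at 2550 and 1776 against 562.5 and 970.2 CPM, each without overlap. Their part in the genotype estimates was not tested. Without wild type double negative replicate 3 and TdT single positive replicate 1 labelled Cdh2-cKO, an alternative added after seeing the data, the counts of called genes were again 9 between CD45- and CD45+ cells, 0 between TdT+ and TdT- cells and 0 between the genotype labels. They were the same without wild type CD45 single positive replicate 2 and wild type double negative replicate 3. Apart from *Cdkn1c*, the filter fixed the direction of the calls between CD45- and CD45+ cells, so nothing is read from that count. The test of a difference in genotype effect between CD45- and CD45+ cells had little to compare, since *H19*, *Peg3*, *Peg10*, *Ndn* and *Meg3* were over the floor in at most 2 of the 12 CD45+ libraries. In it, edgeR, voomWithQualityWeights and DESeq2 called 0 of the 9, beside 0% of all genes with edgeR. There *Mest*, at 1.55 ± 0.729 (SE, adjusted p = 0.643), was the only one of the 9 with an unadjusted p under 0.05, as were 1157 of all genes. No value is given for *Meg3*, which was at or under the floor in all CD45+ libraries.

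Across the 10 CD45- libraries the 9 genes fell into a group that varied together and a few that did not. Spearman's rho, given as a description over libraries that share populations and genotypes, ranged from -0.176 to 0.952 over the 36 pairs, with a median of 0.557. *H19*, *Ndn*, *Meg3* and *Grb10* were close, with rho of 0.952 between *H19* and *Ndn*, 0.939 between *Meg3* and *Ndn* and 0.903 between *Meg3* and *Grb10*. The lowest of their pairs was *H19* with *Grb10*, at 0.782. *Plagl1* was at 0.842 with *H19* and 0.782 with *Ndn*, but at 0.685 with *Meg3* and 0.648 with *Grb10*. *Peg3* reached 0.782 with *Grb10*. *Peg10* stood apart, with rho of at most 0.297 with any of the others. *Cdkn1c* was close only to *Peg3*, at 0.661, and *Mest* reached at most 0.576. On the log2 scale, relative to the mean of each gene over the CD45- libraries, the lowest value was -3.43 for *Meg3* in double negative replicate 1 labelled Cdh2-cKO. In wild type double negative replicate 3 *Peg3* was at -3.32 and *H19* at -2.68, and in TdT single positive replicate 1 labelled Cdh2-cKO *Plagl1* was at -2.90 and *H19* at -2.57. *Cdkn1c* was at -0.92 and 0.02 in these 2 libraries and had its own lowest value, -2.13, in double negative replicate 2 labelled Cdh2-cKO.

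**Figure D4:**
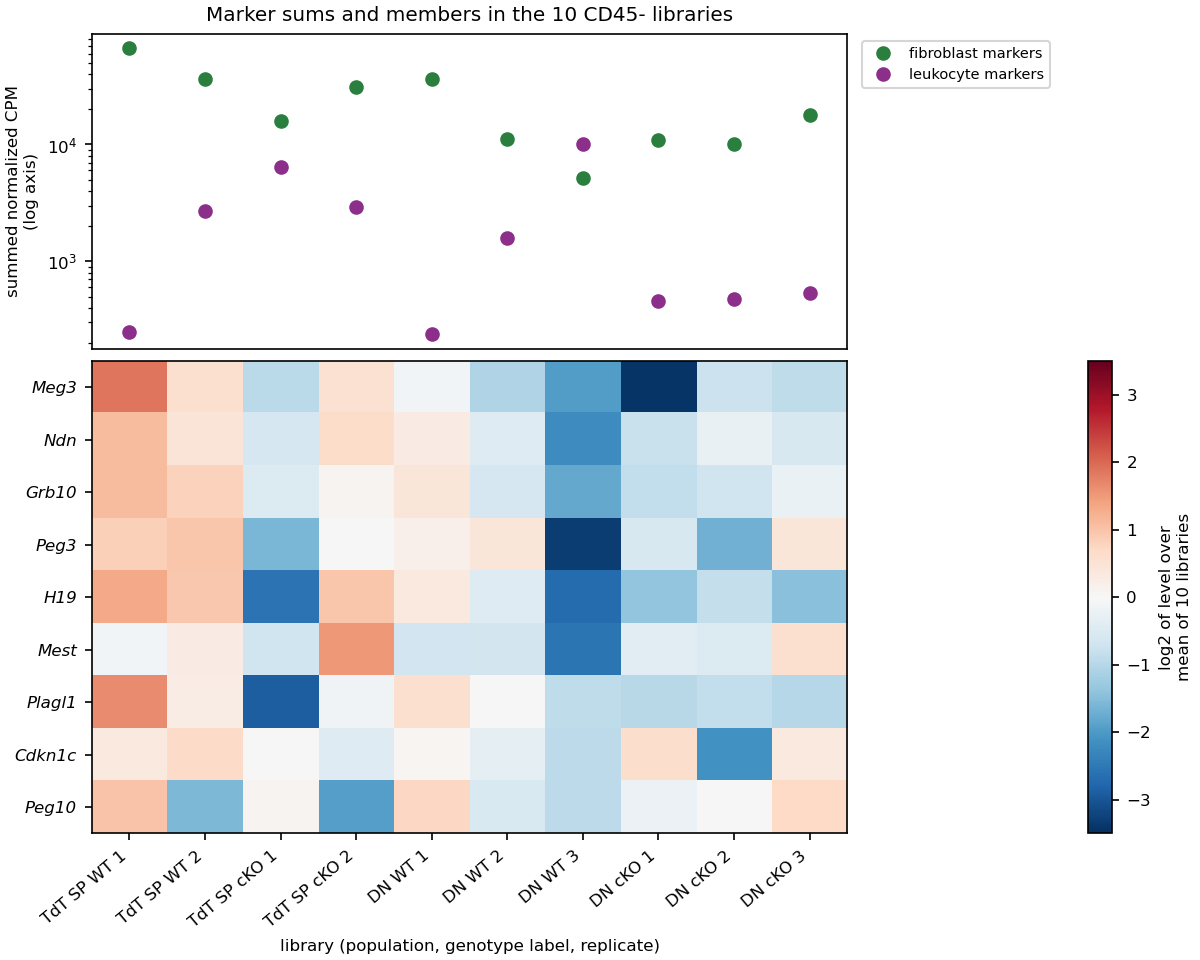
Summed normalized CPM of 10 fibroblast and 10 leukocyte markers (upper panel, log axis) and the log2 level of each of the 9 genes relative to its mean over the 10 CD45- libraries (lower panel, color scale) in each CD45- library. Wild type double negative replicate 3, with the lowest fibroblast sum of 5179 CPM and the highest leukocyte sum of 10020 CPM, had the lowest level of *Peg3*, *H19*, *Mest*, *Ndn* and *Grb10*.

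The genes differed in how closely they followed the fibroblast and pericyte markers over these libraries. With the fibroblast sum, rho was 0.976 for *Grb10*, 0.818 for *Meg3*, 0.794 for *Ndn* and 0.758 for *H19* and for *Peg3*. It was 0.636 for *Plagl1*, 0.515 for *Cdkn1c*, 0.455 for *Mest* and 0.370 for *Peg10*. With the pericyte sum, rho was 0.988 for *Grb10*, 0.891 for *Meg3*, 0.879 for *Ndn*, 0.842 for *Peg3* and 0.830 for *H19*. It was 0.721 for *Plagl1*, 0.527 for *Mest*, 0.455 for *Cdkn1c* and 0.261 for *Peg10*. These values were above those with the fibroblast sum for all but *Cdkn1c* and *Peg10*, and the pericyte and fibroblast sums were both highest in wild type TdT single positive replicate 1 and lowest in wild type double negative replicate 3. With the leukocyte sum all 9 were negative, from -0.176 for *Mest* to -0.673 for *Peg10*. GFP+ tumor cells had been sorted away. The sum of 10 luminal epithelial markers was 33.9 to 1995 CPM in the CD45- libraries and gave rho between -0.030 and -0.685. Its most abundant gene there was *Krt18*. Of its tested genes, *Krt8*, *Krt18* and *Krt19* were higher in CD45- than in CD45+ cells, by log2 differences of 3.41, 3.51 and 7.08. *Epcam*, at 0 counts in 5 of the CD45- libraries, and *Cdh1* were lower, by log2 differences of -4.96 and -4.07. The other marker sums in the CD45- libraries were 55.5 to 521 CPM for endothelial, 14.8 to 192 CPM for skeletal muscle, 51.0 to 438 CPM for adipocyte, 3.83 to 34.95 CPM for Schwann and 228 to 730 CPM for cycling cells. The osteoblast sum of 5348 to 12180 CPM was nearly all *Spp1*, which CD45+ cells also expressed, while *Sp7* was at 0 counts in 8 of the 10 CD45- libraries. *Spp1* was lower in CD45- than in CD45+ cells, by a log2 difference of -1.35. *Ibsp* (5.14), *Alpl* (4.35), *Dmp1* (4.14) and *Runx2* (0.95) were called higher, and *Phex* (1.29) was not called.

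Of 13801 genes compared, those whose order over the 10 CD45- libraries was most like each member were *Snrk* for *Peg3* (rho 0.988), *Rarb* for *Plagl1* (0.964), *Ly75* for *Cdkn1c* (0.976), *Ubr1* for *Peg10* (0.939) and *Arhgap44* for *Mest* (0.915). For *Ndn* 5 genes tied at 0.988, *Foxs1*, *Gpx3*, *Islr*, *Nkain4* and *Syde1*, and for *H19* 3 tied at 0.976, *Asap3*, *Lrrc17* and again *Nkain4*. *Grb10* had 15 genes tied at 0.988, among them *Il1r1*, *Mrc2* and *Cilp*, and *Meg3* had 12 tied at 0.976, among them *Ccdc80* and *Heyl*. With 10 libraries the highest rho was thus shared by several genes for *Ndn*, *H19*, *Grb10* and *Meg3*, and reached by 1 gene for each of the remaining members.

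To place the 10 genes among imprinted genes in general, 55 others were listed from the same clusters and from other loci, of which 51 were matched to the files and 33 passed the filter. Of these 33, 23 were called between CD45- and CD45+ cells, 17 higher and 6 lower in CD45- cells, beside 31.1% and 32.6% of all genes. Their median log2 difference was 0.62 against -0.06 over all genes and 5.76 for the 9 growth regulators, which were chosen with their pattern known. The 5 with the largest difference were all higher: *Dio3* at 7.55 ± 0.792, *Dcn* at 7.43 ± 0.372, *Tfpi2* at 7.17 ± 0.509, *Mirg* at 6.48 ± 0.494 and *Sgce* at 5.86 ± 0.309 (SE). *Dcn*, which encodes the matrix proteoglycan decorin, was also one of the fibroblast markers. The largest difference in the other direction was that of *Tspan32*, named after its value was seen, at -3.65 ± 0.548 (adjusted p = 1.98e-05). Other imprinted genes thus went in both directions. *Slc38a4*, at 6.20 ± 0.945 (SE), was among the first 5 within the libraries labelled Cdh2-cKO.

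**Figure D5:**
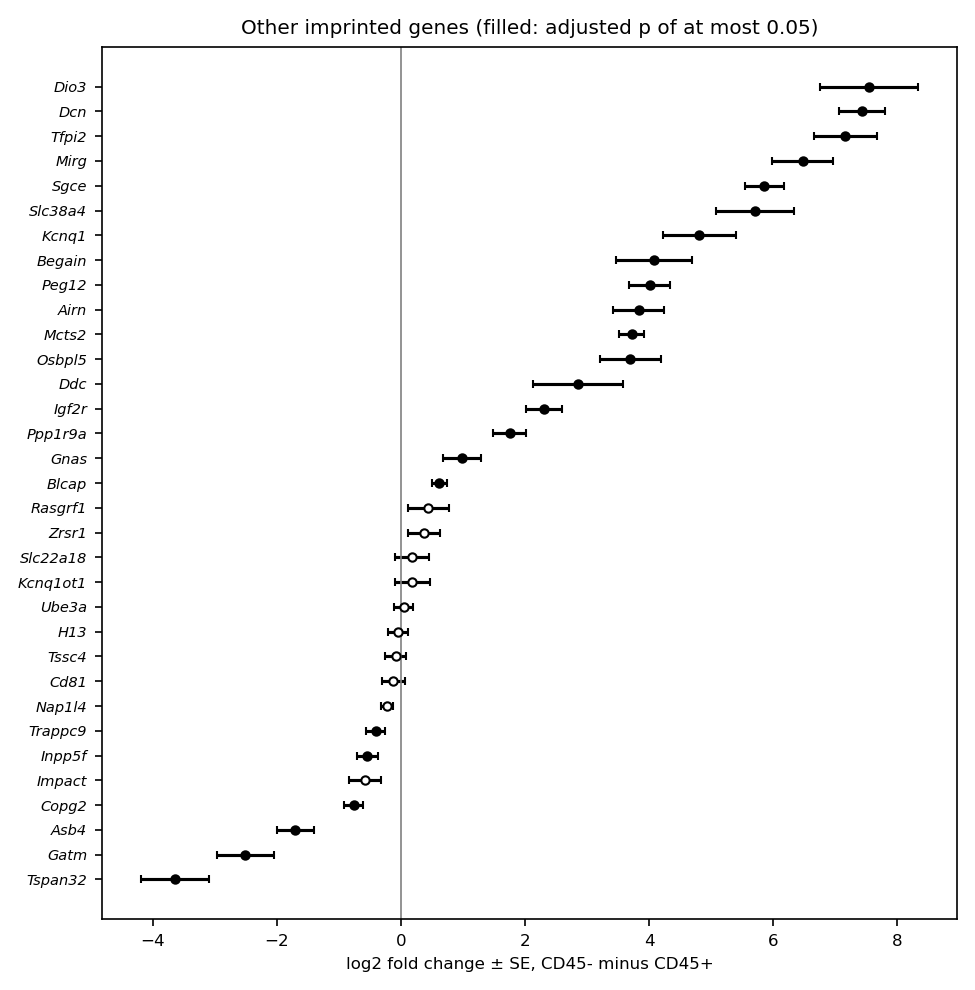
Log2 fold changes of CD45- minus CD45+ cells with standard errors for the 33 other imprinted genes that passed the filter, from edgeR's quasi-likelihood fit, with filled circles where the adjusted p was at most 0.05. They run from -3.65 for *Tspan32* to 7.55 for *Dio3*, with 17 called higher and 6 called lower.

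By cluster, the neighbors of the growth regulators were mixed. As with the growth regulators, *Dio3*, *Mirg* and *Slc38a4*, all below 1 CPM in every CD45+ library, passed the filter only through the CD45- libraries, which fixed their direction, so nothing is read from counts that hold such genes. In the *Meg3* and *Dlk1* cluster 3 of 3 tested neighbors were higher in CD45- cells, including *Dio3*, a deiodinase that inactivates thyroid hormone, and the noncoding RNA *Mirg*. The other was *Begain*, with 167 counts in all 22 libraries together, so the filter may have fixed its direction as well. *Dio3* was at 0.936 to 32.3 CPM in CD45- libraries and at most at 0.229 CPM in CD45+ libraries, and *Mirg* at 1.21 to 7.48 CPM and at most 0.119 CPM, while *Rian* and *Rtl1*, also in this cluster, had 0 counts in all 22 libraries, like *Dlk1*. In the *Peg10* cluster *Sgce*, *Tfpi2* and *Ppp1r9a* were higher and *Asb4* lower, 3 and 1 of 4 tested. *Sgce*, which starts next to *Peg10*, was at 33.1 to 156 CPM in CD45- cells. In the *Cdkn1c* cluster 2 of 8 tested neighbors were higher and 1 was lower. Of the higher, *Kcnq1* had 788 counts in all 22 libraries together, so the filter may have fixed its direction too. The single tested neighbor of *Mest*, *Copg2*, was lower, that of *Grb10*, *Ddc*, was higher, and of the 2 tested neighbors of *Ndn* *Peg12* was higher and *Ube3a* was not called. No neighbor of *H19* or *Peg3* passed the filter. *Ddc* had 461 counts in all libraries, and *Airn*, called higher at another locus, had 1308. The filter may have fixed these directions as well.

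The growth factor *Igf2*, which shares its control region with *H19*, did not pass the filter. It was at 0.165 to 1.002 CPM in the CD45- libraries, over the floor in 9 of 10 of them, with 97 counts in all. In the CD45+ libraries it had 7 counts together and stayed at or below the floor. *Igf2r*, the receptor that removes IGF2 and is itself imprinted, was at 39.98 to 179 CPM in CD45- cells with a median of 107 CPM, and at 6.599 to 47.2 CPM in CD45+ cells with a median of 20.2 CPM. Its log2 difference was 2.31 ± 0.289 (SE, adjusted p = 2.74e-06), and the sides overlapped. Between the genotype labels within CD45- cells 0 of the 33 other imprinted genes were called by edgeR and 3 had an unadjusted p under 0.05. *Igf2r* was at 0.20 ± 0.421 (SE, adjusted p = 0.900) there. voomWithQualityWeights and DESeq2 also called 0 of the 33.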

How the data were processed

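The deposited counts are whole numbers of uniquely aligned, unambiguous reads per gene that the authors made with STAR 2.0.4b on GRCm38 and featureCounts (1.45 in the submitters' processing notes), from SMARTer cDNA that does not keep strand. The deposited CPM are those counts scaled by the authors to the library total. The RPKM deposited by the authors are CPM over gene length in kb. Recomputed from the counts, CPM and RPKM differed from the files by relative errors of 5.12e-14 or less, and they were used no further. All values come from the counts.

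The members and gene lists were chosen with earlier results of these data known. The 355 rRNA genes (at most 5.28% of a library's counts) were left out. Genes above 1 CPM of the library total in 2 or more libraries were kept, 15018 in all. edgeR 4.0.16 in R 4.3.3 with TMM factors fitted 1 mean for each of 8 groups and tested contrasts with its quasi-likelihood test and Benjamini-Hochberg adjustment. Standard errors are the log2 fold change over the root of F. Steps were tested on simulated counts. The floor was 3 counts in a library, and without molecular identifiers floors and intervals describe counting error alone. Replicates differed by 49.7 to 409 times the counting variance. Named were the 10 members, *Cdh2*, *Ptprc*, *Sp7*, *Igf2*, *Igf2r*, up to 5 called other imprinted genes with the largest change and the gene most like each member, and any other gene after its value was seen. Of 55 other imprinted genes, 4 symbols were not matched and not analysed here. Annotation was GENCODE M21, with lengths from the files. Alternatives were limma 3.58.1 voomWithQualityWeights, the test named by the study, DESeq2 1.42.0, RLE factors, no filter, a log2 threshold of 2, replicate blocks and leaving out libraries.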

Additional observations from a re-analysis of the deposited data

How the results depend on the processing

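Across 31 alternatives, 9 of 9 genes were called between CD45- and CD45+ cells each time, and 31.1% of all genes were called higher in the main fit. Apart from *Cdkn1c*, the filter on low counts fixed their direction, and the genes were chosen with their pattern known. Nothing is therefore read from this or the other CD45 counts of members in this section. Within wild type the count was 8 or 9, because *Peg10* was not called when any of 10 libraries was left out (adjusted p 0.0505 to 0.213) or with a replicate block. Within the libraries labelled Cdh2-cKO it was 8 without TdT single positive replicate 1 (*Peg10*, adjusted p = 0.071) and 8 without that library and wild type double negative replicate 3, an alternative chosen after seeing the data. Between TdT+ and TdT- within CD45- cells 0 were called, but 2 with voomWithQualityWeights and between 0 and 1 when a library was left out (1 without wild type double negative replicate 1). The cause was not tested. All other counts of called members were 0 under every alternative. The count of other imprinted genes called between CD45- and CD45+ cells was 16 to 27, against 23.

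Estimates near 0 changed sign. For *Peg10* between the genotype labels within CD45- cells, -0.25 became 0.13 with voomWithQualityWeights (adjusted p = 0.976) and ranged from -0.91 to 0.62 when a library was left out, positive without wild type TdT single positive replicate 1 (0.62), wild type double negative replicate 1 (0.07) or TdT single positive replicate 2 labelled Cdh2-cKO (0.08). In that comparison the ranges were -2.21 to -0.45 for *H19*, -2.47 to -1.06 for *Plagl1*, -1.36 to -0.52 for *Meg3*, -1.33 to -0.53 for *Peg3*, -0.84 to -0.31 for *Grb10*, -0.73 to -0.06 for *Ndn* and 0.12 to 1.22 for *Mest*. For *Cdkn1c* the range was -0.39 to 0.062, positive without double negative replicate 2 labelled Cdh2-cKO. Between TdT+ and TdT- within CD45- cells the ranges were 0.12 to 1.89 for *H19*, 0.24 to 1.34 for *Mest*, 1.27 to 2.02 for *Meg3*, 0.61 to 1.28 for *Ndn*, 0.68 to 1.22 for *Grb10*, 0.086 to 0.54 for *Cdkn1c*, -1.14 to 0.13 for *Peg10*, -0.059 to 0.77 for *Peg3* and -0.42 to 0.96 for *Plagl1*. The last 2 were negative without TdT single positive replicate 2 labelled Cdh2-cKO, and *Peg10* was positive without that library (0.07), without wild type TdT single positive replicate 2 (0.13) or without wild type double negative replicate 1 (0.06). Of these only *Grb10* at 1.22 was called. Leaving out a TdT single positive library leaves 1 in its group, which is assumed to vary like the other groups.

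With the replicate number as a block of 3 levels, 9 members were called between CD45- and CD45+ cells, 8 in wild type, 9 in the libraries labelled Cdh2-cKO and 0 in all other comparisons. With genotype and number as a block of 6 levels, possible only within the genotypes, these were 9, 8, 9 and 0. Deviations from the group means had a median r of 0.0517 over 30 pairs of libraries with the same genotype and number (10 over 0.1) and of -0.0215 over 60 pairs with the same genotype and another number (6 over 0.1). For the 4 pairs of TdT single positive and double negative libraries among the first, r was 0.113 to 0.593, so whether the numbers pair libraries is not known. At 3 counts, the detection limit in the CD45+ libraries was 0.146 to 0.201 CPM.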
